A study of Mus musculus with 13 samples.

Results

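The genes described here encode complement components and receptors, and 10 were chosen by name: C1qa, C1qb, C1qc, C2, C3, C6, Cfb, Cfp, C3ar1 and C5ar1. Of these 10, 9 were read by a probe set whose array annotation pairs it with that gene alone, out of 18820 genes so measured. C3, the central component, had no such probe set and was not analysed here. The levels came from 13 Affymetrix arrays of epididymal fat, a visceral depot, from male mice aged 18 weeks. P2X7 knockout mice were of the strain B6.129P2-P2rx7tm1Gab/J, backcrossed for 7 generations, and were compared with C57/BL6 wild-type mice. From the age of 6 weeks, mice ate a high-fat diet (D12492, 60% of energy from fat) or chow (Harlan Teklad #2914, 13%) for 12 weeks. High-fat knockout mice had 4 arrays, and high-fat wild-type mice, chow-fed knockout mice and chow-fed wild-type mice had 3 each. Whether an array stands for 1 animal is not in the labels, and p-values here refer only to spread among these arrays. The knockout is a whole-body one, so P2X7 was altered in fat cells and immune cells alike.

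Complement is a cascade of blood and tissue proteins that tags particles for uptake and makes inflammatory peptides. C1q, a complex of the products of C1qa, C1qb and C1qc, starts the classical pathway and is made largely by macrophages. C2 is the protease of the classical convertase, factor B (Cfb) that of the alternative convertase, and properdin (Cfp) stabilises the alternative one. C6 takes part in the membrane attack complex. C3ar1 and C5ar1 encode receptors for the peptides C3a and C5a, released when C3 and C5 are cut, and both are known on myeloid cells. Fat tissue is itself a known source of alternative pathway proteins, above all of adipsin (Cfd), which had no probe set of its own and was not analysed here.

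Promoters are shown for 4 genes that rose with diet in both genotypes, picked by hand and not by a rule. Each is the 250 bases upstream of the start given for the gene in a promoter table from RefSeq's annotation of GRCm38.p6. All 4 lie on the minus strand and are printed 5′ to 3′. Capitals mark AGGAAG or its reverse complement CTTCCT, a core of sites for ETS factors such as PU.1 of macrophages, a motif chosen after these sequences were seen. The window of C1qb is chr4:136886201-136886450, that of C1qc chr4:136892915-136893164, that of C3ar1 chr6:122856158-122856407 and that of C5ar1 chr7:16259339-16259588.
C1qb: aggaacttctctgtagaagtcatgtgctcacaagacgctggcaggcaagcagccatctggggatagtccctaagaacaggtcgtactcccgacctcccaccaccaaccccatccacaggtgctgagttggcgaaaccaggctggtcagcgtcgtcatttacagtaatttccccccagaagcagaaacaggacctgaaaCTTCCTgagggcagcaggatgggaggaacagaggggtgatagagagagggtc
C1qc: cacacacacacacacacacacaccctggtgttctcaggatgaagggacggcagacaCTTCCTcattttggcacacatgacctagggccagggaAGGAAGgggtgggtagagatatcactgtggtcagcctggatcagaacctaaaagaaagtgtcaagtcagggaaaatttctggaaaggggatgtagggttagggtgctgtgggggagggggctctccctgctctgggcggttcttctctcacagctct
C3ar1: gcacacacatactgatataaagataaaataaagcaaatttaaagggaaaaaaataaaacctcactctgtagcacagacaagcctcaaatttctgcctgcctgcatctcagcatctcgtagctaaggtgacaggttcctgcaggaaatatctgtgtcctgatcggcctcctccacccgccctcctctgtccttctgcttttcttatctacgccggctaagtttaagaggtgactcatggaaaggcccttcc
C5ar1: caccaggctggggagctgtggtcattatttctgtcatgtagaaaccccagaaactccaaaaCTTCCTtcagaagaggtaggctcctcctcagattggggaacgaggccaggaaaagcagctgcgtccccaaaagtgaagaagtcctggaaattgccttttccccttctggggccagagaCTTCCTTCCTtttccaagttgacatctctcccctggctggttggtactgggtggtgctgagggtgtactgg
C1qb held 1 match, beginning 52 bases upstream of the start. C1qc held 2, at 194 and 157 bases, and C5ar1 held 3, at 189, 71 and 67 bases, of which the last 2 overlap. The annotated span of C5ar1 reaches further upstream than the start used here, so 202 of its 250 bases, with all 3 matches, lie inside that span, as do 22 bases of the C1qc window, with 0 matches. C3ar1 held 0, although its level moved most like that of C5ar1 among the members. Of 32851 mouse promoters of the same length, 29.5% held at least 1 match and 6.246% held 2 or more, so a match is common and is given as a description. In all, 7 of the 10 genes had an entry in the promoter table. C1qa, C2 and Cfb had none.

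Values are log2 intensities after robust multi-array averaging (RMA), and a difference of 1 is a doubling. Levels of different genes are not compared, because probe sets differ in brightness. Within groups, pairs of arrays had correlations of 0.993 to 0.997 across genes, and array medians over genes lay between 6.56 and 6.69. P2rx7, the targeted gene, read 8.90 to 9.14 in knockout mice and 9.36 to 9.69 in wild-type mice on high-fat diet. On chow it read 7.90 to 8.23 in knockout mice and 7.91 to 8.41 in wild-type mice. Neither genotype difference of P2rx7 passed (-0.47, limma adjusted p 0.464, and -0.16, adjusted p 0.741). The sources used here do not say whether its probe set falls inside the altered part, so these levels check nothing about the labels.

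High-fat feeding changed most of the 9 measured genes of the named set, in 2 directions. In knockout mice 6 of 9 rose and 1 fell, and in wild-type mice 7 rose and 2 fell, at an adjusted p under 0.05 over all genes (limma, Benjamini-Hochberg). The same test called 14.5% of all genes risen and 19.7% fallen in knockout mice, and 17.7% risen and 18.1% fallen in wild-type mice. The 9 genes were chosen with earlier results of these data known, so these shares describe a background and do not test the set. The median log2 change of the 9 genes was 0.88 in knockout mice and 1.06 in wild-type mice, beside -0.06 and -0.03 over all genes. An unadjusted p under 0.05 was reached by 7 of the 9 genes and 42.7% of all genes in knockout mice, and by 9 of 9 and 43.7% in wild-type mice. In knockout mice the diets did not overlap, with high-fat arrays higher, for 6 genes (17.5% of all genes) and lower for 1 (25.6%), and in wild-type mice for 7 (20.8%) and 2 (22.5%). The anaphylatoxin receptors rose most, 4.01-fold for C3ar1 in knockout mice and 5.33-fold in wild-type mice. The C1q genes rose by 1.84- to 2.54-fold, and C2 fell more than 3-fold in both genotypes.

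**Figure D1:**
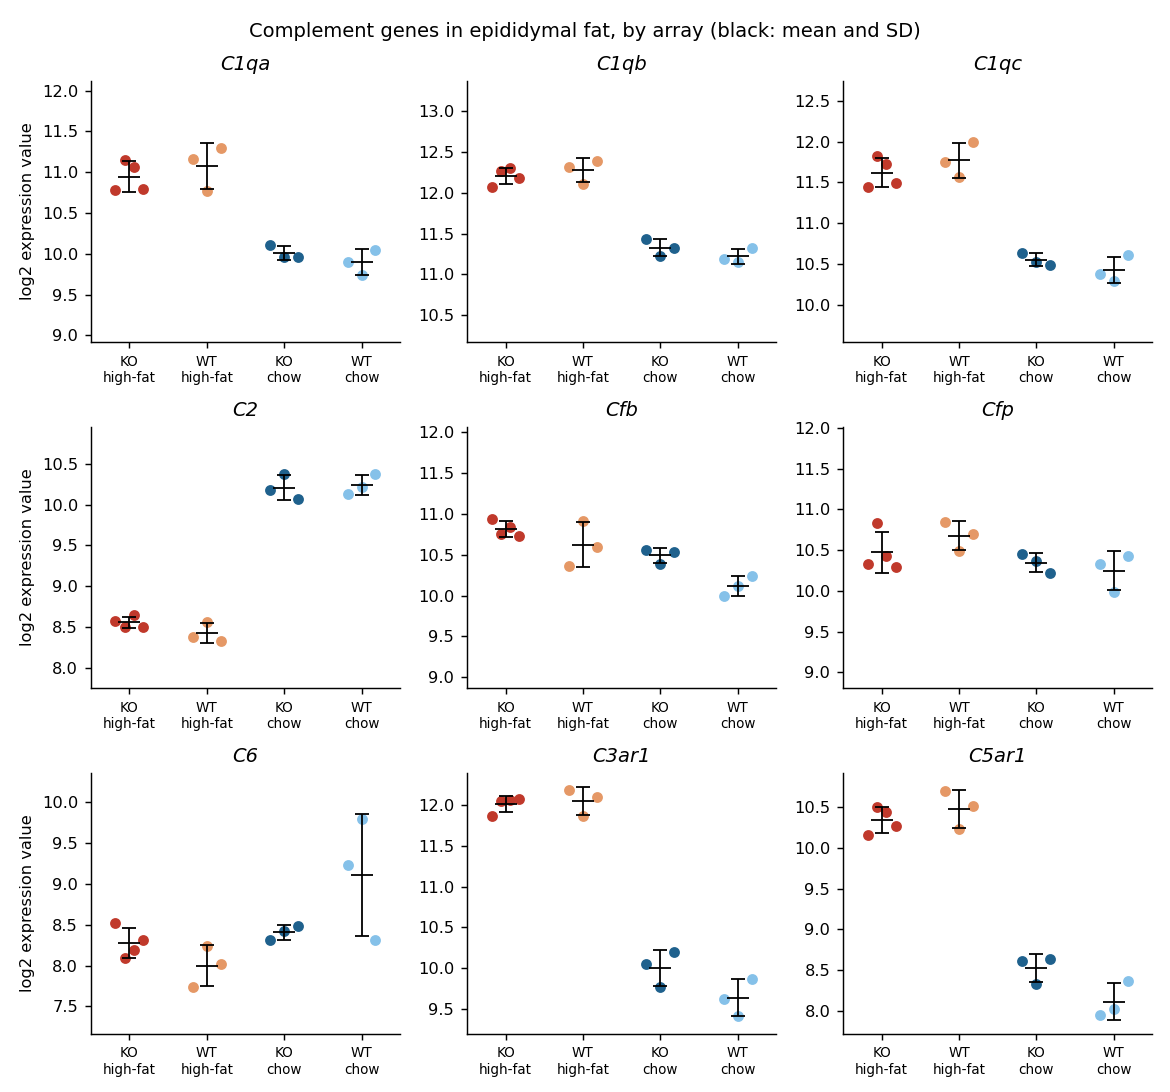
Log2 value of the 9 measured genes of the named set on each of the 13 arrays, in 1 panel per gene, with the groups along the axis and bars for the mean and SD of each group. The high-fat arrays sit above the chow arrays for C1qa, C1qb, C1qc, Cfb, C3ar1 and C5ar1 and below them for C2 in both genotypes, while C6 reaches 9.80 on 1 array of wild-type mice on chow.

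C1qb, the B chain of C1q (Entrez 12260), read 12.07, 12.27, 12.30 and 12.18 in knockout mice given the high-fat diet, against 11.43, 11.23 and 11.33 on chow. In wild-type mice it read 12.32, 12.11 and 12.39 on high-fat diet, against 11.19, 11.15 and 11.32 on chow. All high-fat arrays lay above all chow arrays, and the genotypes overlapped on both diets. The diet change of C1qb was 0.88 ± 0.08 in knockout mice (SE, limma adjusted p 2.19e-06, 1.84-fold) and 1.06 ± 0.08 in wild-type mice (adjusted p 6.18e-07, 2.08-fold). Knockout and wild-type mice on high-fat diet averaged 12.21 ± 0.10 (SD, n = 4) and 12.28 ± 0.15 (n = 3), and on chow 11.33 ± 0.10 and 11.22 ± 0.09 (n = 3 each). The groups were thus ordered by diet, and the genotypes within a diet did not differ beyond their spread.

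C1qc, the C chain (Entrez 12262), read 11.45, 11.82, 11.72 and 11.49 in knockout mice given the high-fat diet, against 10.64, 10.53 and 10.49 on chow. In wild-type mice C1qc read 11.75, 11.56 and 11.99 on high-fat diet, against 10.38, 10.29 and 10.61 on chow. The groups of each genotype were again fully separate by diet. C1qc had the largest change of the 3 chains in both genotypes, 1.07 ± 0.11 in knockout mice (adjusted p 9.50e-06) and 1.34 ± 0.12 in wild-type mice (adjusted p 1.78e-06). For C1qa, the A chain (Entrez 12259), the values ran from 10.78 to 11.15 in knockout mice on high-fat diet and from 9.96 to 10.11 on chow. In wild-type mice C1qa ran from 10.77 to 11.30 on high-fat diet and from 9.73 to 10.05 on chow. Its changes were 0.93 ± 0.13 (adjusted p 7.63e-05) and 1.18 ± 0.14 (adjusted p 1.41e-05).

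The 3 C1q genes lie side by side on chromosome 4, with 0 other entries between them in the RefSeq gene table, and their profiles over the arrays were close. The root-mean-square difference between profiles, each centred on its own mean over the 13 arrays, was 0.0963 for C1qa and C1qb, 0.0874 for C1qa and C1qc, and 0.141 for C1qb and C1qc on the log2 scale. These are descriptions over arrays that share the diet contrast.

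C2, the classical pathway protease (Entrez 12263), went the other way. It read 8.57, 8.51, 8.65 and 8.49 in knockout mice given the high-fat diet, against 10.18, 10.38 and 10.07 on chow. In wild-type mice C2 read 8.37, 8.56 and 8.33 on high-fat diet, against 10.13, 10.22 and 10.37 on chow. Every high-fat array lay at least as low as 8.65 and every chow array at least as high as 10.07, so no gap between genotypes came near the gap between diets. C2 fell by 1.65 in knockout mice (log2, SE 0.09, 3.14-fold, limma adjusted p 7.66e-08) and by 1.82 in wild-type mice (SE 0.09, 3.52-fold, adjusted p 3.42e-08).

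Cfb encodes factor B, the counterpart of C2 in the alternative pathway (Entrez 14962). It read 10.95, 10.76, 10.84 and 10.73 in knockout mice given the high-fat diet, against 10.56, 10.39 and 10.54 on chow. In wild-type mice Cfb read 10.36, 10.91 and 10.60 on high-fat diet, against 9.99, 10.12 and 10.25 on chow. The diets were separate in each genotype, but by a small margin. Cfb rose by 0.32 ± 0.11 in knockout mice (adjusted p 0.0341, 1.25-fold) and by 0.50 ± 0.12 in wild-type mice (adjusted p 0.00372, 1.42-fold). The call in knockout mice failed in 6 of 23 alternative settings, among them the fits without any 1 of the 3 chow arrays of knockout mice and without replicates 1 or 3 on high-fat diet, where the change lay between 0.27 and 0.35.

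C2 and Cfb are near neighbours on chromosome 17, with 1 entry between them in the gene table, and they moved apart. The difference C2 minus Cfb within an array was -2.26 ± 0.08 in knockout mice on high-fat diet (SD, n = 4) and -2.20 ± 0.19 in wild-type mice on high-fat diet (n = 3), against -0.29 ± 0.24 in knockout mice on chow (n = 3) and 0.12 ± 0.02 in wild-type mice on chow (n = 3). Only the change of this difference between groups can be read, since the 2 probe sets differ in brightness. Their profiles differed by 1.09 (root mean square, log2).

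Cfp, properdin (Entrez 18636), read 10.33, 10.83, 10.43 and 10.29 in knockout mice given the high-fat diet, against 10.45, 10.37 and 10.22 on chow. In wild-type mice Cfp read 10.84, 10.49 and 10.70 on high-fat diet, against 10.33, 9.98 and 10.43 on chow. The diets overlapped in knockout mice and were narrowly separate in wild-type mice. The change was 0.12 ± 0.14 in knockout mice (adjusted p 0.529) and 0.43 ± 0.15 in wild-type mice (adjusted p 0.0346). The rise in wild-type mice passed in 16 of 23 alternative settings, with 0.30 the smallest value over the settings. It did not pass without high-fat replicate 1, high-fat replicate 3 or chow replicate 2 of wild-type mice. It also missed the threshold with arrays centred on their medians (limma adjusted p 0.0553) and with only the compared groups fitted (0.0570). The same held with replicate numbers as a block (0.0612) and with the hepatocyte marker covariate described below (0.287). The interaction of Cfp, -0.31 ± 0.20, did not pass (adjusted p 0.642), so a difference between the genotypes was not shown.

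C6, a component of the membrane attack complex (Entrez 12274), read 8.52, 8.10, 8.19 and 8.31 in knockout mice given the high-fat diet, against 8.31, 8.42 and 8.49 on chow. In wild-type mice C6 read 7.73, 8.24 and 8.02 on high-fat diet, against 9.23, 9.80 and 8.31 on chow. Replicates 1 and 2 of wild-type mice on chow stood above all other arrays, and the third lay among the knockout arrays. The diet change of C6 was -0.13 ± 0.25 in knockout mice (log2, SE, limma adjusted p 0.737), while in wild-type mice C6 fell by 1.12 (SE 0.27, adjusted p 0.00499). The interaction was 0.99 ± 0.37, with an unadjusted p of 0.0185 and an adjusted p of 0.430. The diet change in wild-type mice was -1.52 without replicate 3 and -0.77 without replicate 2 of the chow arrays, and it passed in both fits.

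The arrays with high C6 also had high markers of another tissue, but not every array high in these markers had high C6. The mean log2 value of 13 hepatocyte markers, among them albumin and other genes of secreted liver proteins, ran from 5.58 to 5.67 in knockout mice on chow, and it was 7.86, 7.16 and 6.88 in wild-type mice on chow. On high-fat diet it ran from 5.19 to 6.23 in knockout mice and from 5.43 to 6.98 in wild-type mice, with replicate 2 highest. That wild-type array, at 6.98, and replicate 3 of wild-type mice on chow, at 6.88, read C6 at only 8.24 and 8.31. Of the 13 markers, 1 fell and 1 rose (Hpx, by 2.32) with diet in knockout mice, and 8 fell and 0 rose in wild-type mice. With the mean of these markers as covariate, the C6 change in wild-type mice was -0.77 ± 0.35, which missed the threshold (adjusted p 0.147). In wild-type mice the markers differed by diet, at 6.88 to 7.86 on chow and 5.43 to 6.98 on high-fat diet, with little overlap. This fit therefore separates diet from the markers poorly there. The markers did not overlap between knockout and wild-type mice on chow, so it separates genotype from the markers poorly as well. In knockout mice the marker mean was 5.60 on high-fat diet and 5.62 on chow. Since the covariate fit separates diet and genotype from the markers poorly, it does not decide their part in the C6 change, which was not otherwise tested.

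**Figure D2:**
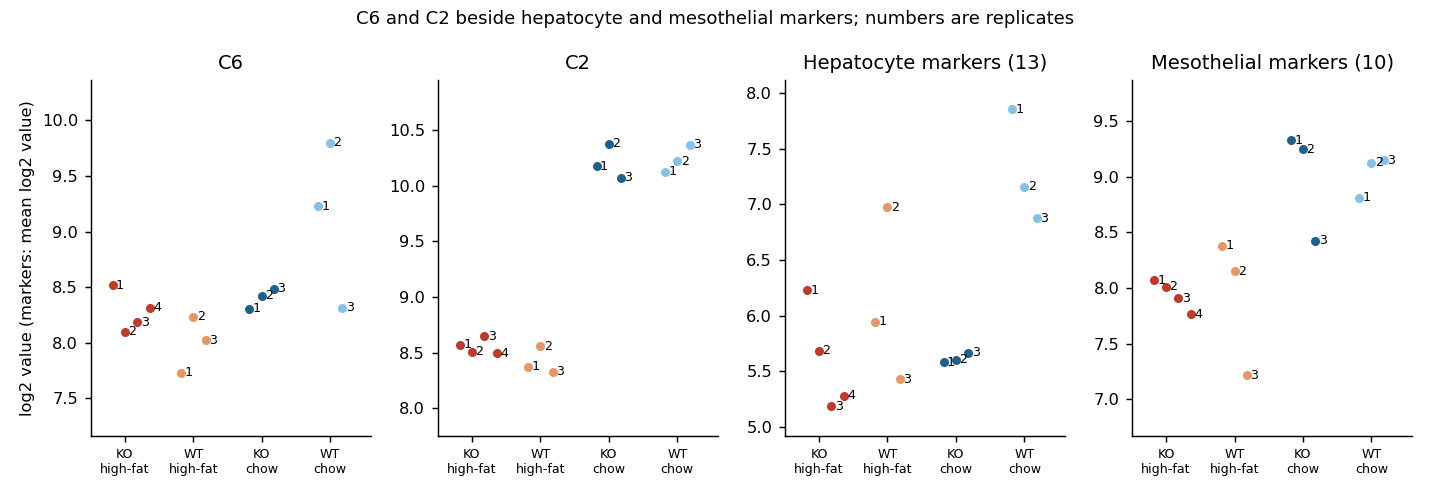
Log2 value of C6 and C2, mean log2 value of 13 hepatocyte markers and mean log2 value of 10 mesothelial markers on each array, with the groups along the axis and the replicate number beside each point. The hepatocyte markers stand at 6.88 or above in all 3 wild-type chow arrays, 2 of which hold the highest C6 values, and C2 follows diet in both genotypes.

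C3ar1, the receptor for C3a (Entrez 12267), had the largest change of the 9 genes. It read 11.86, 12.04, 12.06 and 12.07 in knockout mice given the high-fat diet, against 10.05, 9.77 and 10.20 on chow. In wild-type mice C3ar1 read 12.18, 11.86 and 12.10 on high-fat diet, against 9.62, 9.41 and 9.87 on chow. The ranges of the 2 genotypes overlapped on both diets, with 2 of the 3 wild-type arrays above all knockout arrays on high-fat diet and 2 of the 3 below them on chow. C3ar1 rose by 2.00 ± 0.12 in knockout mice (adjusted p 1.17e-07, 4.01-fold) and by 2.41 ± 0.13 in wild-type mice (adjusted p 3.81e-08, 5.33-fold).

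C5ar1, the receptor for C5a (Entrez 12273), followed it. It read 10.16, 10.50, 10.44 and 10.26 in knockout mice given the high-fat diet, against 8.62, 8.34 and 8.64 on chow. In wild-type mice C5ar1 read 10.69, 10.23 and 10.51 on high-fat diet, against 7.95, 8.02 and 8.37 on chow. The diets were far apart in each genotype, and the genotypes overlapped on each diet. C5ar1 rose by 1.81 ± 0.13 in knockout mice (adjusted p 4.05e-07, 3.51-fold) and by 2.36 ± 0.14 in wild-type mice (adjusted p 6.84e-08, 5.15-fold). C3ar1 and C5ar1 had profiles 0.116 apart, and the within-array difference C5ar1 minus C3ar1 stayed between -1.67 and -1.47 in the means of the 4 groups.

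**Figure D3:**
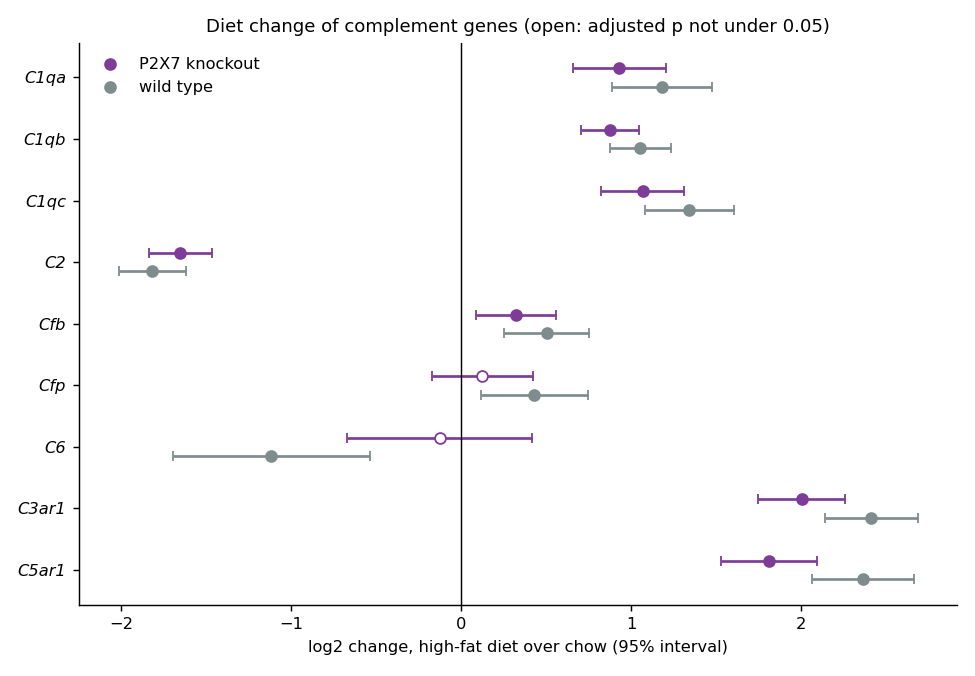
Log2 change on high-fat diet over chow for the 9 complement genes, with its 95% interval from limma, in knockout and wild-type mice. Filled points passed at an adjusted p under 0.05. The changes run from -1.65 to 2.00 in knockout mice and from -1.82 to 2.41 in wild-type mice.

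Macrophage markers moved with the C1q genes and the receptors. The mean of 12 macrophage markers was 9.95 ± 0.09 in knockout mice (SD, n = 4) and 10.02 ± 0.16 in high-fat wild-type mice (n = 3), against 8.95 ± 0.13 in knockout mice and 8.81 ± 0.18 in wild-type mice on chow (n = 3 each). With diet, 10 of these markers rose and 2 fell in knockout mice, and 10 rose and 1 fell in wild-type mice. Adgre1, a surface receptor of macrophages, rose by 1.95 in knockout mice and 2.32 in wild-type mice, and Cd163, a receptor of resident macrophages named here after its values were seen, fell by 1.07 in knockout mice and by 0.90 in wild-type mice. In whole tissue, a larger number of macrophages and more RNA per macrophage cannot be told apart.

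Set against these markers on the same array, the complement genes differed from each other. The mean of the C1q genes minus the marker mean was 1.64 ± 0.08 in knockout mice and 1.69 ± 0.09 in wild-type mice on high-fat diet, against 1.68 ± 0.06 in knockout mice and 1.71 ± 0.10 in wild-type mice on chow (SD). These 4 values differed by less than the spread between arrays, but the chains did not move alike. C1qb minus the markers was lower on high-fat diet with no overlap, at 2.26 in knockout mice and 2.26 in wild-type mice, against 2.38 in knockout mice and 2.41 in wild-type mice on chow. C1qc minus the markers was 1.67 and 1.75 in knockout and wild-type mice on high-fat diet, against 1.60 and 1.62 on chow, with overlap. The within-array difference C1qc minus C1qb was -0.59 and -0.51 on high-fat diet, against -0.78 and -0.79 on chow, with no overlap between the diets. C3ar1 minus the markers was 2.06 and 2.03 in knockout and wild-type mice on high-fat diet, against 1.06 in knockout mice and 0.83 in wild-type mice on chow, and C5ar1 minus the markers was 0.39 and 0.46, against -0.42 and -0.69. Both receptors therefore rose by more than the marker mean, with no overlap between the diets. The changes of the 12 markers themselves ran from -1.07 to 2.72 in knockout mice and from -0.90 to 3.09 in wild-type mice. The marker mean thus joins rises larger than those of either receptor with falls, and these differences depend on the markers chosen. Cfp minus the markers was 0.52 and 0.66 on high-fat diet, against 1.40 and 1.44 on chow, which is the reverse order. Cfb minus the markers was likewise lower on high-fat diet, at 0.87 and 0.60, against 1.55 and 1.31, and C2 minus the markers stood at -1.40 and -1.60, against 1.26 and 1.43. These differences are descriptions and were not tested, and the part of macrophage number in the diet changes was not tested.

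**Figure D4:**
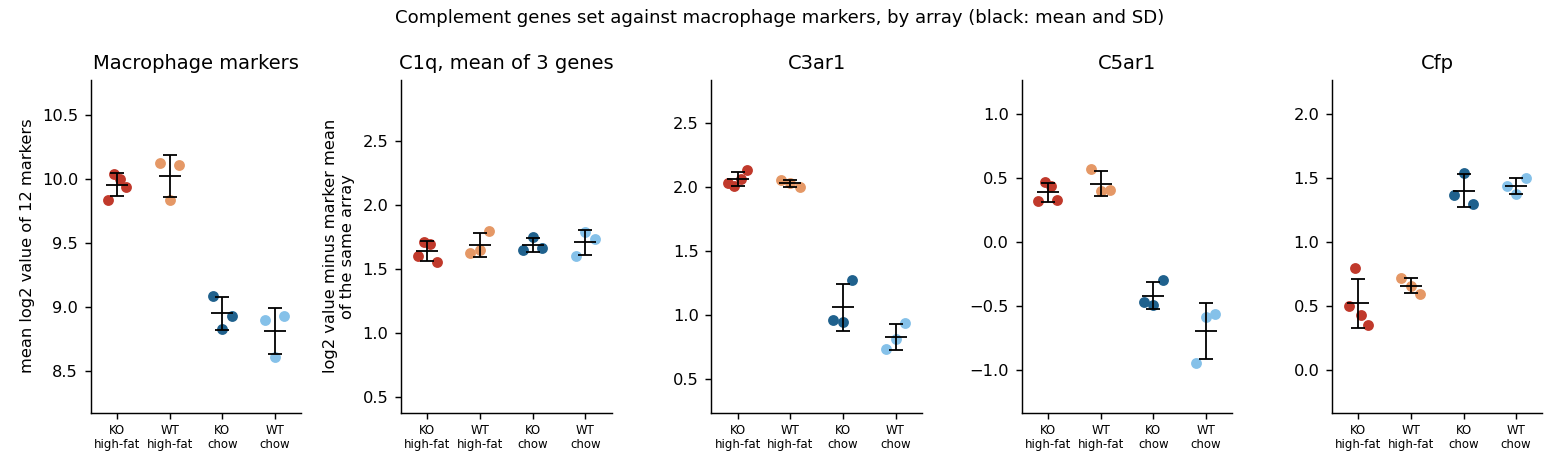
Mean log2 value of 12 macrophage markers on each array in the left panel, and in the other panels the mean of the 3 C1q genes, C3ar1, C5ar1 or Cfp minus that marker mean on the same array. Black bars are the mean and SD of a group. The means of the C1q difference in the 4 groups stay between 1.64 and 1.71, with single arrays from 1.55 to 1.79. C3ar1 and C5ar1 lie higher on high-fat diet and Cfp lies lower.

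Markers of other cell types moved with diet as well, and for these too cell number and RNA per cell cannot be told apart. Mean levels of 11 adipocyte markers were 11.73 in knockout mice and 11.60 in wild-type mice on high-fat diet, against 12.29 in knockout mice and 12.24 in wild-type mice on chow. Of these markers, 7 fell and 1 rose in knockout mice, and 8 fell and 1 rose in wild-type mice, with median changes of -0.51 and -0.69. Slc2a4, the insulin-responsive glucose transporter, had the largest fall of the list, by 2.25 in knockout mice and by 2.31 in wild-type mice. The mean of 10 mesothelial markers ran from 7.76 to 8.07 in knockout mice and from 7.22 to 8.38 in wild-type mice on high-fat diet, against 8.42 to 9.33 in knockout mice and 8.81 to 9.15 in wild-type mice on chow. Of these markers, 10 fell in knockout mice and 8 in wild-type mice. The means of 8 endothelial markers were 9.57 in knockout mice and 9.42 in wild-type mice on high-fat diet, against 9.87 in knockout mice and 9.94 in wild-type mice on chow, and 2 fell in knockout mice and 6 in wild-type mice, with 0 risen. Median changes in knockout and wild-type mice were -1.13 and -1.11 for the mesothelial list and -0.19 and -0.50 for the endothelial list. C2 changed by -1.65 and -1.82, and the part of these 3 lists in its change was not tested. Mast cell markers stood at 7.03 and 6.85 in knockout and wild-type mice on high-fat diet, against 5.90 and 5.87 on chow, and 7 of 8 rose in knockout mice and 5 in wild-type mice. The markers of fibroblasts and preadipocytes ranged over group means of 10.62 to 10.89, those of dendritic cells over 6.32 to 6.42 and those of neutrophils over 4.73 to 4.80. Behind these narrow means, single markers moved both ways. Of 12 fibroblast and preadipocyte markers, 5 rose and 2 fell in knockout mice, and 4 rose and 3 fell in wild-type mice. In each genotype 3 of 7 dendritic cell markers rose and 3 fell, and 2 of 9 neutrophil markers rose and 2 fell. As background to all these marker counts, 14.5% of all genes rose and 19.7% fell in knockout mice. In wild-type mice 17.7% rose and 18.1% fell, so the neutrophil counts lay near the share of all genes. Epididymis markers, which would show the neighbouring organ, had group means of 3.76 to 4.00, and T and B cell markers 5.61 to 5.96, with replicate 2 of knockout mice on high-fat diet at 6.96. Without that array and the wild-type high-fat array highest in hepatocyte markers, the counts were the same, at 6 risen and 1 fallen in knockout mice and 7 and 2 in wild-type mice.

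The comparison of genotypes asked whether loss of P2X7 altered complement levels. On chow 0 of 9 genes passed, where 0.0478% of all genes rose and 0.085% fell. An unadjusted p under 0.05 was reached by 4 of the 9 genes and by 9.62% of all genes. Cfb was 0.38 ± 0.12 higher in knockout mice (unadjusted p 0.00626, limma adjusted p 0.296), and its 3 knockout arrays, at 10.39 to 10.56, lay above the 3 wild-type arrays, at 9.99 to 10.25. Such a gap, with knockout arrays higher, was seen for 9.3% of all genes, and one with knockout arrays lower for 5.64%. C3ar1 stood 0.37 ± 0.13 higher (adjusted p 0.369) and C5ar1 0.41 ± 0.14 higher (adjusted p 0.357) in knockout mice, and C6 stood at -0.71 ± 0.27 (adjusted p 0.417), with the arrays of the genotypes overlapping for each. In the same comparison all 13 hepatocyte markers had an unadjusted p under 0.05, with 0 passing and a median difference of -1.73. With their mean as covariate the differences were 0.57 for Cfb, 0.08 for C3ar1, 0.02 for C5ar1 and -0.22 for C6, none past the threshold. The C1q genes differed by 0.11 to 0.13, C2 by -0.03 and Cfp by 0.10, all with 95% intervals that include 0. Leaving out replicate 3 of wild-type mice on chow, the low C6 array, C6 stood at -1.11 ± 0.18 and passed (adjusted p 0.0390).

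On high-fat diet 0 of 9 genes passed and 0 reached an unadjusted p under 0.05, where 0.0106% of all genes rose, 0.0319% fell and 7.41% reached that unadjusted p. The differences ran from -0.21 for Cfp to 0.28 for C6. The 95% interval was -0.30 to 0.22 for C3ar1, -0.42 to 0.14 for C5ar1, -0.24 to 0.10 for C1qb and -0.05 to 0.32 for C2, which bound the size of a genotype difference at these numbers of arrays. All 9 genes overlapped between the genotypes, whereas 2.41% of all genes had all knockout arrays higher and 4.27% all lower. Over both diets 0 of 9 passed, with 0.0478% of all genes risen and 0.0584% fallen, and 1 of 9 reached an unadjusted p under 0.05, beside 7.23% of all genes. That gene was Cfb, at 0.29 ± 0.08 (unadjusted p 0.00315, adjusted p 0.364). Once high-fat replicate 2 of wild-type mice was left out, the array highest in both Cfb and hepatocyte markers of its group, Cfb passed at 0.36 (adjusted p 0.0349).

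Whether the diet change itself differed between the genotypes was tested as an interaction. It called 0% of the 18820 genes, of which 9.72% had an unadjusted p under 0.05, and 0 of the 9, of which 3 had such a p (C6, C5ar1 and C3ar1). C6 had the largest interaction, the 0.99 ± 0.37 given above. The interaction was -0.55 ± 0.19 for C5ar1 (unadjusted p 0.0126, limma adjusted p 0.393) and -0.41 ± 0.17 for C3ar1 (unadjusted p 0.0349, adjusted p 0.483), the negative sign meaning a smaller rise in knockout mice. On chow, C3ar1 ran from 9.77 to 10.20 in knockout mice and from 9.41 to 9.87 in wild-type mice, and C5ar1 averaged 8.53 ± 0.17 in knockout mice and 8.12 ± 0.22 in wild-type mice (SD, n = 3 each). On high-fat diet the ranges of the genotypes overlapped in part for both genes, with 2 of the 3 wild-type arrays above all knockout arrays. The C1q genes stood at -0.18 to -0.27 and Cfb at -0.18. For C2 the value was 0.16, which means a smaller fall in knockout mice, with an adjusted p of 0.694.

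The rest of the complement system was read from a list of 45 further genes, of which 36 were measured. In knockout mice 10 rose and 2 fell with diet, and in wild-type mice 7 rose and 6 fell, with median changes of 0.07 and -0.08. Over all genes 14.5% rose and 19.7% fell in knockout mice, and 17.7% rose and 18.1% fell in wild-type mice, so the wild-type counts lay near the share of all genes. For genotype and for the interaction, 0 of the 36 passed (limma). An unadjusted p under 0.05 was reached by 8 of the 36 on chow (9.62% of all genes), 6 on high-fat diet (7.41%), 9 over both diets (7.23%) and 8 for the interaction (9.72%). On chow 4 of the 8 were terminal pathway genes, and all 5 measured genes of that pathway stood lower in knockout mice, at -0.61 to -0.28. Their chow means were low, at 3.67 to 5.95 in knockout mice and 4.25 to 6.23 in wild-type mice, under the array medians of 6.56 to 6.69. All 13 hepatocyte markers reached such a p in that comparison, also lower in knockout mice, and their part was not tested. Leaving out replicate 3 of knockout mice on chow, or replicate 1 of wild-type mice fed the high-fat diet, which enters only the estimate of spread, moved the fallen count in knockout mice to 4, as did leaving out replicate 2 of each genotype on high-fat diet together. That count was also 4 with array weights and 6 in a fit of the knockout arrays alone. Leaving out single wild-type arrays also moved the 0 fallen to 1 for genotype on chow, genotype on high-fat diet or the interaction. Receptors made up most of the risen genes, and 6 of 7 rose in each genotype. C5ar2, the other C5a receptor, rose by 1.89 ± 0.12 in knockout mice (adjusted p 1.85e-07) and by 2.28 ± 0.13 in wild-type mice (adjusted p 5.65e-08). Itgax, a subunit of complement receptor 4, rose by 3.03 ± 0.33 in knockout mice and 3.92 ± 0.35 in wild-type mice, and its chow arrays were widely spread (SD 0.66 in knockout mice and 0.70 in wild-type mice). Its partner Itgb2 rose by 1.60 ± 0.20 and 2.44 ± 0.22, and Itgam, the subunit of complement receptor 3 that also stands in the macrophage list, by 1.28 ± 0.20 and 1.58 ± 0.22. Cd93, once described as a C1q receptor, rose by 0.80 ± 0.07 and 0.80 ± 0.08, and Vsig4, the receptor for C3b on resident macrophages, by 1.51 ± 0.25 and 1.01 ± 0.27. Cr2, a receptor of B cells, did not pass.

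Regulators and enzymes moved less uniformly. Clu, the inhibitor clusterin, fell by 0.73 in knockout mice (SE 0.11, adjusted p 0.000224) and by 1.15 in wild-type mice (SE 0.12, adjusted p 6.72e-06). Cd46, a membrane cofactor, fell by 0.56 in knockout mice and by 0.84 in wild-type mice. Cfi, the protease that inactivates C3b, rose by 1.16 ± 0.20 in knockout mice (adjusted p 0.000486) and stood at 0.54 in wild-type mice (adjusted p 0.0632). Its levels were low, averaging 5.26 on high-fat diet and 4.10 on chow in knockout mice, under the array medians of 6.56 to 6.69. Masp1, a protease of the lectin pathway, stood at -0.54 in knockout mice (adjusted p 0.0549) and fell by 1.39 in wild-type mice (SE 0.22, adjusted p 0.000198). The C8 genes of the membrane attack complex, C8a, C8b and C8g, passed in wild-type mice, by -0.46, -0.51 and -0.56, and did not pass in knockout mice. C8b averaged 4.34 on high-fat diet and 4.85 on chow in wild-type mice. The count of 6 fallen genes in wild-type mice was 2 when genes with a mean under 6 were left out, 3 with the hepatocyte marker mean as covariate and 4 to 7 without 1 array. Of the 4 other classical pathway genes measured, the proteases C1ra, C1s1 and C1s2 and the component C4a, 0 passed in either genotype (limma), and 0 reached an unadjusted p under 0.05. Each of these 4 has a close copy in the mouse genome, so a probe set may read more than 1 gene.

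**Figure D5:**
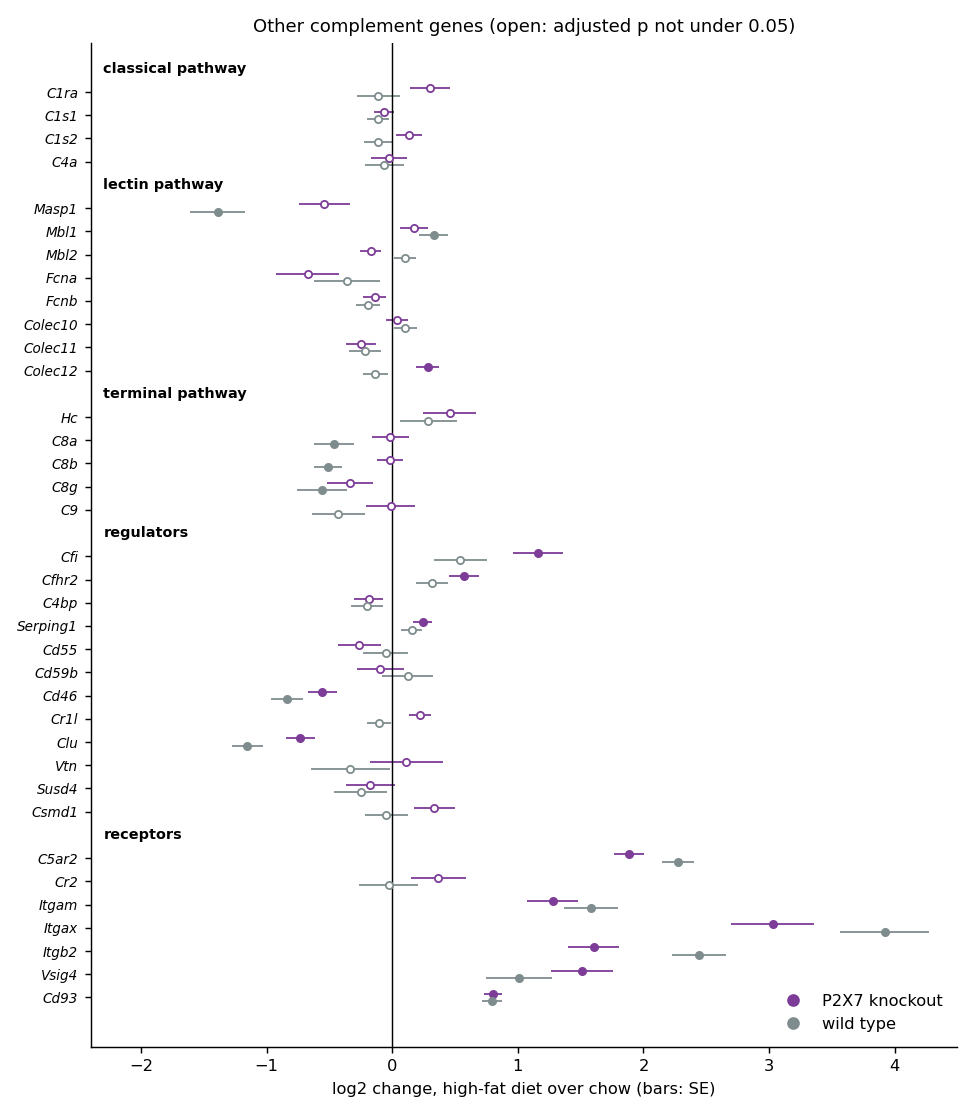
Log2 change on high-fat diet over chow, with its SE as a bar, of the 36 further complement genes, grouped by role, in knockout and wild-type mice. Filled points passed at an adjusted p under 0.05. All receptors but Cr2 lie to the right of 0 in both genotypes, up to 3.92 for Itgax in wild-type mice, and Clu and Cd46 lie to the left.

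For each member the 2 non-member genes with the closest centred profile over the 13 arrays were looked up. Predicted genes, clone names, small RNAs and genes with no Entrez match were left out of the search. C3ar1 was closest to Apobec1, an RNA-editing enzyme, at a root-mean-square difference of 0.0651, and to Cd68, a lysosomal macrophage protein, at 0.0730. C5ar1 was closest to Lpxn, an adaptor of leukocytes, at 0.117 and to Tnfrsf11a, which encodes RANK, at 0.117. The member C3ar1 lay slightly nearer to C5ar1, at 0.116. C1qa lay nearest to the potassium channel Kcnk6 (0.0740) and to Ttyh3 (0.0806), C1qb to the actin-binding Coro1c (0.0584) and the DNA methyltransferase Dnmt1 (0.0609), and C1qc to the lysosomal genes Hexa (0.0794) and Cln3 (0.0814). C2 lay nearest to Chrdl1, a secreted antagonist of bone morphogenetic proteins, at 0.0877 and to Ivd, an enzyme of leucine breakdown, at 0.119. Cfb was nearest to Trp53inp2 (0.0742) and to Lbp, the lipopolysaccharide-binding protein (0.0893), and Cfp to the lipid transporter Abca7 (0.105) and the receptor kinase Axl (0.107). C6 had no near match, with Atp1a4 at 0.214 and Kcnk2 at 0.236. The arrays share the diet contrast, and these likenesses are descriptions.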

How the data were processed

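The deposited table holds log2 intensities that the authors normalised with RMA, as named in the submitters' processing notes without a version. Each array was made from 100 ng of total RNA. Values ran from 1.70 to 13.86 over 35556 probe sets and were not normalised further. Of these, 21218 had 1 gene symbol in the annotation of the platform, 1881 had several and 12457 had none. Only the first were named, and the probe set with the highest mean stood for a gene, giving 18820 genes. Of these, 18790 matched RefSeq's GRCm38.p6 gene table by Entrez ID, used for names and gene order, since the genome build of the array annotation is not stated.

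Tests used limma 3.58.1 under R 4.3.3 (with version 1.17.8 of data.table), with 1 mean per group over all 13 arrays, an intensity trend and Benjamini-Hochberg adjustment over all genes, at 0.05. Values after a plus-minus sign are SE for changes and SD for levels. The number of arrays limits the precision. The steps were tested on simulated data. The rule for named genes gave all members and Cfd, and up to 6 passing genes of the further complement list per comparison. It also gave 2 nearest non-member profiles per member and up to 2 genes per marker list. Cd163, Vsig4, Cfi, Cd46, Masp1, Cr2, the C8 genes and the 4 classical pathway genes lie outside it, named once their values had been seen. The members and lists were chosen with earlier results of these data known. Alternatives changed the variance model, scaling, filter, probe sets, array weights, groups fitted and replicate block, added a hepatocyte marker covariate, and left out each array. Leaving out 2 arrays together was added after seeing the data. Same-numbered arrays of different groups deviated from their group means with correlations of -0.30 to 0.22 over 18 pairs, so the numbers were not taken as pairing. Figures used Python 3.11.15 and matplotlib 3.10.9.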

Additional observations from a re-analysis of the deposited data

Results flagged for a closer look

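In knockout mice on high-fat diet, the lowest C3ar1 value, 11.86 in replicate 1, stood apart from the other 3 arrays, at 12.04 to 12.07. It is the gap to its neighbour, as a share of the group's range, that is large, while the group's SD of 0.10 is the smallest of the 4 groups. By the 95% critical value of Dixon's test, chance gives a gap past the limit in about 1 of 20 groups, and 9 genes were examined. Without that array the diet change of C3ar1 in knockout mice still passed.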

How the results depend on the processing

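C1qa, C1qb, C1qc, C2, C3ar1 and C5ar1 kept direction and call for diet in both genotypes in all 23 alternatives. Exceptions were Cfb in knockout mice (17 of 23), Cfp in wild-type mice (16 of 23) and C6 in wild-type mice (22 of 23). The cause of the changes below was not tested. With the hepatocyte marker mean as covariate, 1 of the 9 genes fell in wild-type mice, and 4148 genes in all were called there, against 6736. For genotype on chow 25 genes were called, against 16 with a mean of at least 6, 6 with the replicate block, 0 with the covariate, 40 without replicate 2 of both genotypes on high-fat diet ("both arrays" below) and 2 to 44 without 1 array. On high-fat diet 8 were called, against 2 with only the groups compared, 0 with the replicate block, 13 with the covariate, 281 without both arrays and 6 to 177 without 1 array, 177 when high-fat replicate 2 of wild-type mice was left out. Over both diets 20 were called, against 6 with the block, 32 with array weights, 81 without both arrays and 11 to 62 without 1 array. For the interaction 0 were called, against 2 without the trend, 1 with arrays centred on their medians, 2 with a mean of at least 6, 1 with array weights, 160 without both arrays and 0 to 106 without 1 array. Of the 9 genes, 0 to 1 fell on chow (C6) and 0 to 1 rose over both diets (Cfb) without 1 array, and 1 rose without both arrays, Cfb at 0.37 (adjusted p 0.0400). With the replicate block Cfb in knockout mice (adjusted p 0.0603) and Cfp in wild-type mice (adjusted p 0.0612) did not pass. The labels tie no arrays of different groups together. Signs turned, with no call, for genotype on chow with the covariate (C1qa -0.27, C1qb -0.16, C1qc -0.23, C2 0.0086, Cfp -0.0316). They turned over both diets for C1qb when centred (-0.0022) and without both arrays (-0.0327), for C1qa (0.0206) and C1qc (0.0096) with the block, and for C1qb (-0.16), C6 (0.11), C3ar1 (-0.0214) and C5ar1 (-0.12) with the covariate. They turned for the interaction with the covariate (C1qa 0.0194, C1qb 0.0084). Without 1 array, C2 on chow ran from -0.114 to 0.0395, Cfp on chow from -0.0342 to 0.19, C3ar1 on high-fat diet from -0.13 to 0.0268, and over both diets C1qa from -0.0832 to 0.0502, C1qb from -0.0217 to 0.0481 and C1qc from -0.0635 to 0.0442.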
